A study of Homo sapiens with 12 samples.

Results

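The genes described here are FOS, FOSB, FOSL1, FOSL2, JUN, JUNB, JUND, EGR1, IER3 and DUSP1, 10 genes of the AP-1 and immediate early response, chosen by name from the 32077 genes of the count table. All 10 were in the table, and all 10 had enough counts to be tested in each cell line. RNA was sequenced from the androgen-independent human prostate cancer lines PC3 and DU145, both long established, which had been kept for 48 hours in vehicle or in pentamidine at 2.5 μmol/L. Pentamidine is a cationic aromatic diamidine used against protozoan and fungal infections, and the vehicle was sterile distilled water. The 4 groups were PC3 cells with vehicle, PC3 cells with pentamidine, DU145 cells with vehicle and DU145 cells with pentamidine, each of 3 samples with no other agent or genetic change named. Each group was 1 cell line in culture, and the labels do not say whether its samples came from separate cultures. The captions of the study speak of independent experiments for the means plotted, but do not tie the sequenced samples to them. If the samples shared a culture, the p-values measure only the spread between them, which may be technical.

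AP-1 is a dimeric transcription factor built from a JUN protein paired with another JUN, a FOS or a related bZIP protein, and it binds short palindromic sites in promoters and enhancers. Immediate early genes are transcribed within minutes of a growth factor, stress or calcium signal, mostly through ERK, JNK and p38 kinases acting on factors already present in the cell, and many of their transcripts are short-lived. The samples here were taken at 48 hours, long after such a first wave. The subunits differ in use: FOS, FOSB and JUN carry strong activation domains, FOSL1, FOSL2 and JUNB are often weaker activators, and JUND is typically present in resting cells too.

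Each sample held between 13514195 and 15131436 counts in total. Levels are given as CPM, the count scaled to the library total after TMM normalization, mean ± SD with n = 3, and a log2 fold change is pentamidine against vehicle with its standard error (SE). A gene is said to have risen or fallen where edgeR's quasi-likelihood test gave it an adjusted p below 0.05 (Benjamini-Hochberg, over all genes tested). PC3 and DU145 refer to the labels, since the markers went partly against them. The epithelial markers EPCAM, CDH1 and KRT19 had 0 to 2, 0 to 10 and 0 to 3 counts in the 12 libraries. KRT8 had 238 to 307 counts in the PC3 libraries and 25835 to 38812 in the DU145 libraries, and KRT18 had 2125 to 3085 and 9962 to 13423. KLK3, an androgen receptor target, had 0 to 2 counts. Counts of the 9 measured markers of blood, endothelial and stromal cells summed to 13 to 27 in PC3 cells with vehicle. With pentamidine the sum was 6 to 16, and in DU145 cells it was 45 to 53 with vehicle and 33 to 41 with pentamidine. Most of the DU145 sum was the fibroblast marker COL1A1, at 36 to 40 counts with vehicle and 25 to 29 with pentamidine. In PC3 cells COL1A1 had 3 to 12 and 3 to 5 counts, and PTPRC and DCN had 0 to 1 in the 12 libraries. The identity of the cells was not tested. Mitochondria-encoded genes took 3.79% to 3.91% of the counts in PC3 cells with vehicle and 2.66% to 2.76% with pentamidine, and 4.41% to 4.66% and 1.97% to 2.07% in DU145 cells. Their part in the results was not tested, but removing them before normalization changed no member's call. Among replicates, PC3 vehicle replicate 1 stood apart over all genes, since the chi-square between counts, averaged over genes, was 5.975 and 7.305 against replicates 2 and 3, which gave 3.641 against each other, while the other groups had 1.715 to 3.133. Without it, all 7 members called in PC3 cells passed, as did the 6 whose response differed between the lines and the 5 that differed between the vehicle groups. The values it moved most are given with each gene.

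In PC3 cells 5 of the 10 genes rose with pentamidine (IER3, FOSL2, DUSP1, JUND and JUN), 2 fell (FOSL1 and EGR1) and 3 did not pass the test. In DU145 cells 1 of the 10 rose (JUND), 6 fell (IER3, EGR1, JUNB, DUSP1, FOSL2 and JUN) and 3 did not pass. Of all genes tested in PC3 cells, 21.7% rose and 21.7% fell, and in DU145 cells 17.2% rose and 16.8% fell. Every change was below 2-fold: none of the 10 passed an absolute log2 fold change above 1 together with the adjusted p, which 4.75% of genes did in the PC3 comparison and 2.03% in that of DU145. The 3 samples of each group did not overlap for 7 of the 10 genes in PC3 and for 8 in DU145, against 52.1% and 44% of all genes tested. The median log2 fold change of the 10 genes was 0.16 for PC3 and -0.46 for DU145, where the median of all genes tested was 0.0046 and 0.0085. The median absolute log2 fold change of the 10 genes was 0.56 and 0.52, against 0.24 and 0.16 for all genes. Scaled by library size alone, the genes that rose were 66.6% of the genes called in DU145 cells in place of 50.6%, and the same 7 members passed the test there with the same directions.

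Of the 10 genes, 6 passed the test in both lines. JUND rose in both and EGR1 fell in both, while IER3, FOSL2, DUSP1 and JUN rose in PC3 cells and fell in DU145 cells. The PC3 call of JUN was lost when any of 4 of its 6 samples was left out. Of the 13125 genes tested in each line, 22% passed in both, 9.94% rose in both, 9.62% fell in both and 1.33% rose in PC3 cells and fell in DU145 cells.

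**Figure D1:**
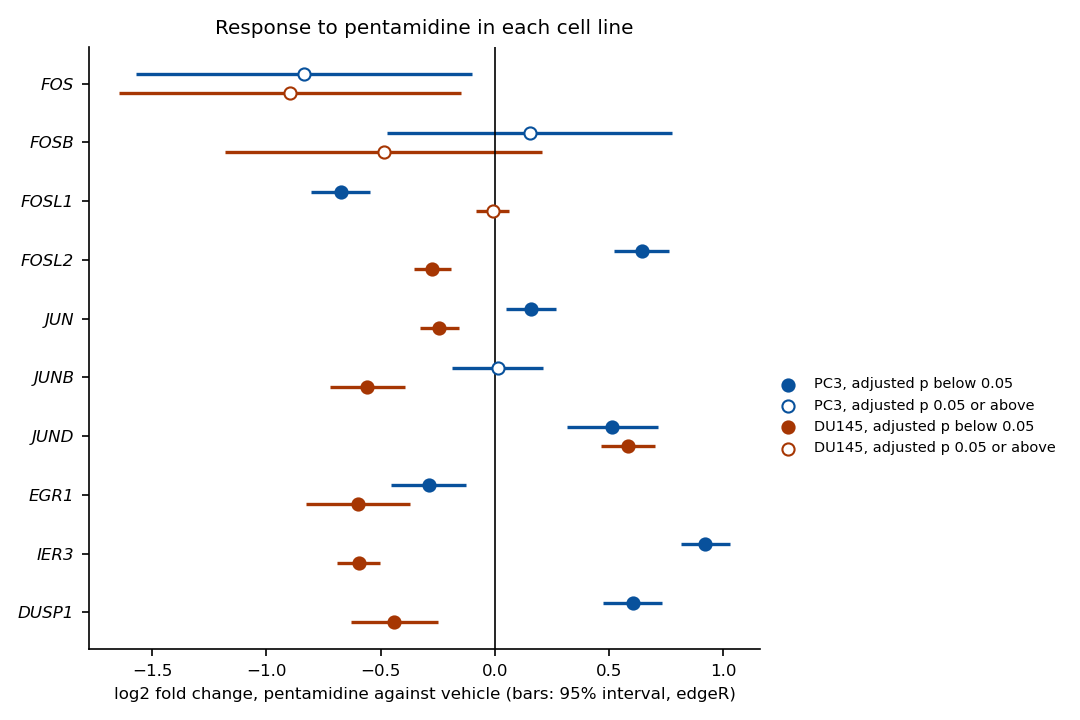
Log2 fold change of each gene with pentamidine in PC3 cells (blue) and DU145 cells (brown), with 95% intervals from edgeR, n = 3 per group. Filled points passed an adjusted p below 0.05. IER3 lies at 0.92 for PC3 and -0.60 for DU145, and JUND lies at 0.51 and 0.58.

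The promoters of 3 members are shown as examples. EGR1 and JUND moved the same way in both lines, and DUSP1 moved in opposite ways, as did FOSL2 and JUN, which are not shown. The 3 shown are also those in which a CArG box or a CRE, both defined below, was found. Whether the matches go with the direction of response was not tested. Each is the 250 bases before the RefSeq start site (assembly GRCh38.p14), 5′ to 3′ on the strand of the gene. Capitals mark matches to TGANTCA (the TRE, the preferred AP-1 site), TGACGTCA (the CRE, bound by CREB, ATF and some AP-1 dimers), TGACG (the CRE half-site) and the CArG box, which is bound by SRF, each searched on both strands.

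EGR1 promoter, chr5:138465229-138465478, plus strand: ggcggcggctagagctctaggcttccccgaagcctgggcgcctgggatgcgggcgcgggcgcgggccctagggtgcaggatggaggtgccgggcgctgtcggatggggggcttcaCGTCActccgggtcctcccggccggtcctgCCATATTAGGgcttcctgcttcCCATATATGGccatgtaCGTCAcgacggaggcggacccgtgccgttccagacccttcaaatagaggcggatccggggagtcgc

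JUND promoter, chr19:18281623-18281872, minus strand: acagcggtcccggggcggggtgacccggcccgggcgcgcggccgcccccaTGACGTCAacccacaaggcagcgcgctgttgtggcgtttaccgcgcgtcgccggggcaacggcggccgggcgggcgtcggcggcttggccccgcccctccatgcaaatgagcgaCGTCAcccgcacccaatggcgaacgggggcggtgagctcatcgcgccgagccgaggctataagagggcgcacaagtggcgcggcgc

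DUSP1 promoter, chr5:172771196-172771445, minus strand: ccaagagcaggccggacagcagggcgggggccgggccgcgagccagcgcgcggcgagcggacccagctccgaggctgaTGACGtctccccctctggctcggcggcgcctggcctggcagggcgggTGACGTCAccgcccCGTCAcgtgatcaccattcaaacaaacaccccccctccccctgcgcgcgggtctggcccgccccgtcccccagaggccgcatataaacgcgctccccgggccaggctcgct

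The promoter windows of 8 of the 10 members were found in the RefSeq table, running from 250 bases before the start site to 50 after it, and those of FOSL1 and IER3 were not. EGR1, a gene with known serum response elements, was the only one of the 8 with CArG boxes inside its window, at positions -105 to -96 and -83 to -74 from the start site. A CArG box was found in 1.30% of all 34943 promoters of that table. JUND had a CRE at -200 to -193 and DUSP1 had one at -125 to -118, and 1.84% of all promoters held a CRE. FOSL2 was the only one of the 8 with a TRE, at 5 to 11 after the start site, against 7.72% of all promoters. The half-site, which is also counted inside a CRE, was found in all 8 windows and in 24.5% of all promoters. The TATA box (TATAAA) was found in 4 of the 8, FOS, FOSB, JUNB and DUSP1, and in 11.6% of all promoters. A match describes the letters of the window and was not tested for binding. Sites outside the windows were not searched, so a gene without a match here may have such a site farther away.

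**Figure D2:**
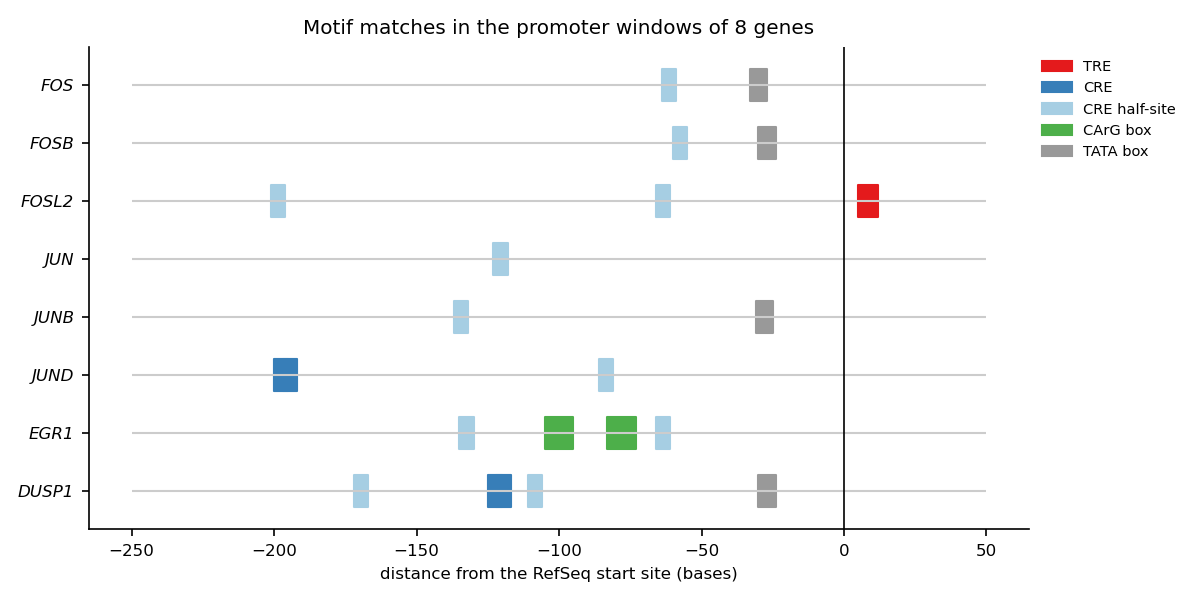
Motif matches in the 8 promoter windows by distance from the RefSeq start site, in bases (250 before to 50 after). The 2 CArG boxes lie in EGR1, the CRE in JUND and DUSP1, and the TRE in FOSL2, and half-site matches lying inside a CRE are covered by it.

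Among the FOS family, FOSL1 and FOSL2 carried nearly all of the counts, and they moved in opposite directions in PC3 cells. FOSL1 (ENSG00000175592, chromosome 11:65892049-65900573, GRCh38), which encodes FRA-1, a subunit that tumour cells often keep at a high level, had 219.7, 189 and 221 CPM in PC3 cells with vehicle and 135, 132 and 126 with pentamidine. The groups did not overlap, and the mean fell from 209.8 ± 18.3 to 131 ± 4.61 CPM, a log2 fold change of -0.67 ± 0.061 (SE; edgeR adjusted p = 1.22e-07). In DU145 cells FOSL1 had 194, 198 and 199.97 CPM with vehicle and 187, 203 and 196 with pentamidine. These groups overlapped, and the log2 fold change was -0.01 ± 0.036 (95% interval -0.08 to 0.06, edgeR adjusted p = 0.877). The response of FOSL1 differed between the lines by 0.67 ± 0.073 on the log2 scale (DU145 minus PC3, edgeR adjusted p = 1.04e-07).

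FOSL2 (ENSG00000075426, chromosome 2:28392448-28417312), which encodes FRA-2, had 82.8, 79.2 and 86.1 CPM in PC3 cells with vehicle and 126, 124 and 135 with pentamidine. All 3 treated samples were above all 3 controls, and the mean rose from 82.7 ± 3.45 to 129 ± 5.78 CPM (log2 fold change 0.64 ± 0.057, edgeR adjusted p = 8.33e-08). In DU145 cells FOSL2 started higher, with 139, 131 and 136 CPM, and had 109.6, 109.9 and 115 with pentamidine. It fell there without overlap from 136 ± 3.84 to 112 ± 3.24 CPM (log2 fold change -0.27 ± 0.041, edgeR adjusted p = 2.47e-07). The difference between the responses was -0.92 ± 0.069 (edgeR adjusted p = 8.52e-11).

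FOS (ENSG00000170345, chromosome 14:75278774-75282230), the founding member and a classical immediate early gene, was close to the limit of what could be counted. It had 19, 27 and 33 counts in PC3 cells with vehicle and 14, 20 and 10 with pentamidine, and these groups overlapped. In DU145 cells it had 17, 19 and 21 counts with vehicle and 12, 13 and 6 with pentamidine, which did not overlap. The log2 fold change was -0.83 ± 0.35 in PC3 cells (95% interval -1.57 to -0.10, edgeR adjusted p = 0.0627) and -0.90 ± 0.37 in DU145 cells (-1.64 to -0.15, edgeR adjusted p = 0.0569), so neither passed the test at this depth. Without PC3 vehicle replicate 1 or without PC3 pentamidine replicate 2, FOS did pass in PC3 cells, at -1.04 (edgeR adjusted p = 0.0161) and -1.15 (edgeR adjusted p = 0.0371). Leaving out other samples weakened it, to -0.58 without PC3 vehicle replicate 3 (edgeR adjusted p = 0.256) and -0.61 without PC3 pentamidine replicate 3 (0.233), and in DU145 cells to -0.63 without pentamidine replicate 3 (0.26). FOSB (ENSG00000125740, chromosome 19:45467995-45475179), a further FOS paralog, had 17 to 21 counts in the 6 PC3 samples and 11 to 27 in the 6 DU145 samples. Its groups overlapped in both lines, with log2 fold changes of 0.15 ± 0.30 (95% interval -0.47 to 0.78) and -0.49 ± 0.35 (-1.18 to 0.21) and edgeR adjusted p-values of 0.707 and 0.295. A single sample moved the FOSB value in DU145 cells, to -1.02 without pentamidine replicate 1 (edgeR adjusted p = 0.0571), -0.28 without pentamidine replicate 2 (0.645), -0.29 without pentamidine replicate 3 (0.615) and -0.32 without vehicle replicate 3 (0.601).

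**Figure D3:**
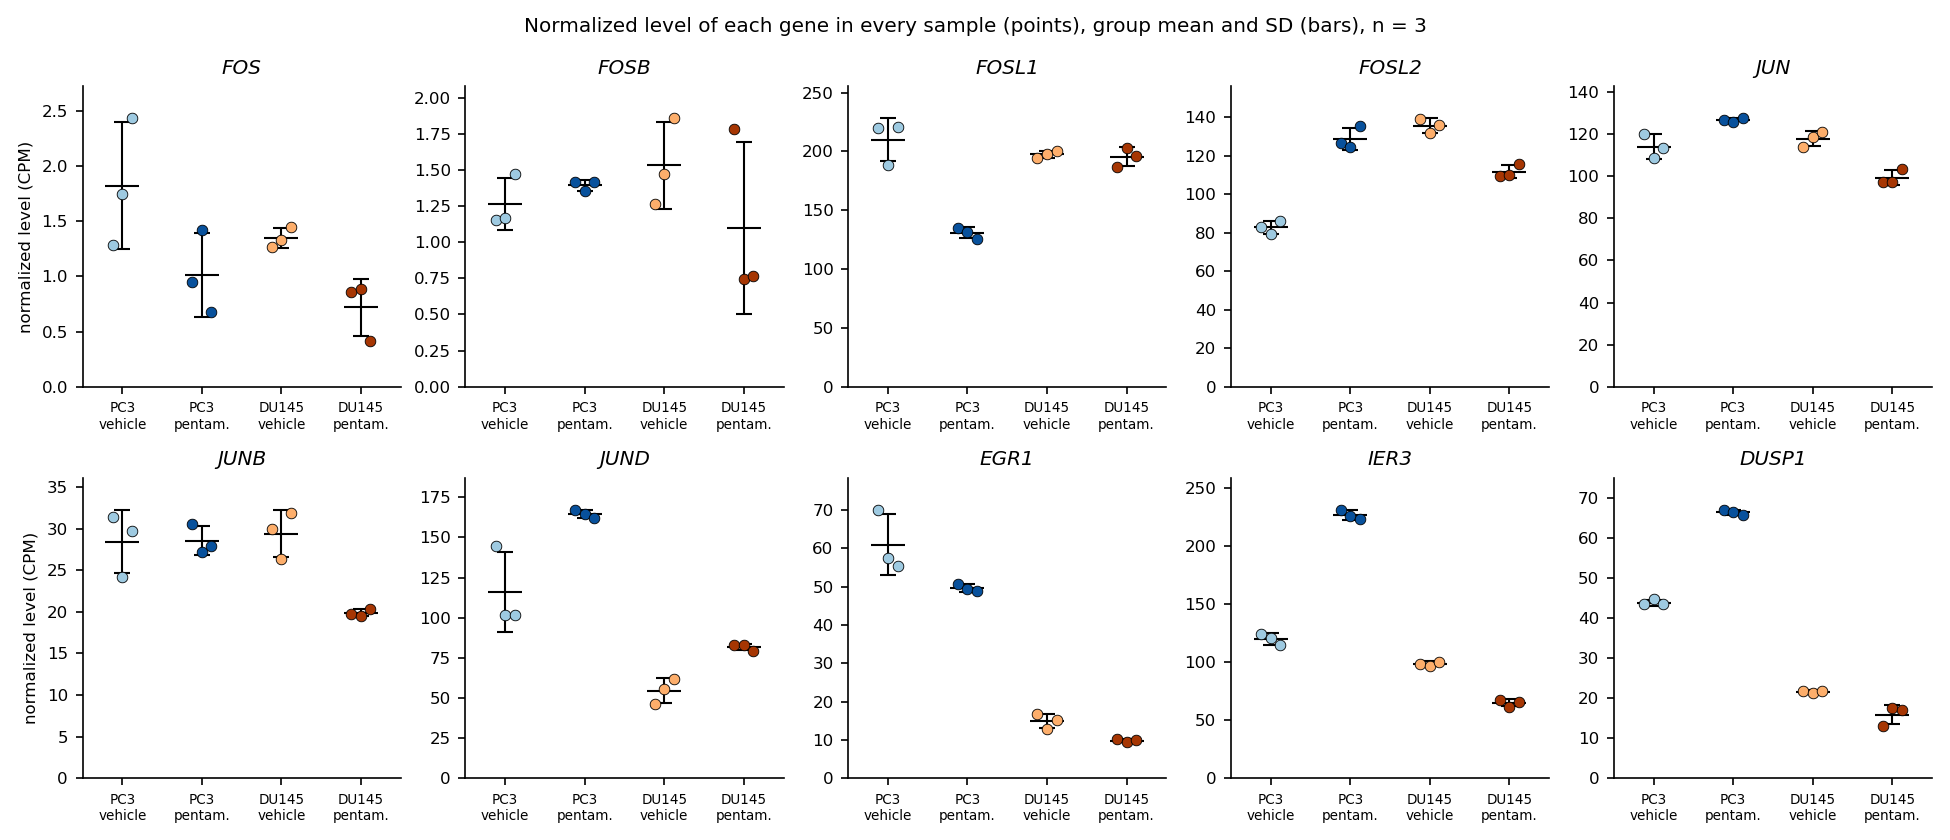
Normalized level (CPM, TMM) of each of the 10 genes in every sample, with the group mean and SD as bars, n = 3, each vertical axis starting at 0. FOS and FOSB reach at most 2.43 CPM in the 12 samples, while FOSL1 lies between 126 and 221 CPM.

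The JUN family differed from gene to gene. JUND (ENSG00000130522, chromosome 19:18279760-18281622), a gene without introns, rose in both lines. It had 145, 101 and 102 CPM in PC3 cells with vehicle, where replicate 1 stood above the other two, and 167, 165 and 162 with pentamidine. All 3 treated samples lay above that replicate, and the mean rose from 116 ± 24.9 to 165 ± 2.44 CPM (log2 fold change 0.51 ± 0.095, edgeR adjusted p = 3.07e-04). Without vehicle replicate 1 the value was 0.70 (edgeR adjusted p = 1.17e-17). In DU145 cells JUND had 46.4, 55.5 and 62.0 CPM with vehicle and 82.7, 83.2 and 79.3 with pentamidine, again with no overlap. The mean rose from 54.6 ± 7.84 to 81.7 ± 2.15 CPM (log2 fold change 0.58 ± 0.059, edgeR adjusted p = 1.07e-11). The difference between the 2 responses was 0.07 (95% interval -0.20 to 0.35, edgeR adjusted p = 0.775), which does not show that they were equal, and it was -0.13 without PC3 vehicle replicate 1 (edgeR adjusted p = 0.321).

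JUN (ENSG00000177606, chromosome 1:58780788-58784327), the subunit that JNK phosphorylates, had 120.15, 109 and 113 CPM in PC3 cells with vehicle and 127, 126 and 127 with pentamidine. The groups did not overlap, and the mean rose from 114 ± 5.82 to 127 ± 0.763 CPM, a small change (log2 fold change 0.16 ± 0.053, edgeR adjusted p = 0.0221). This call was lost without PC3 vehicle replicate 2 (edgeR adjusted p = 0.109). It was also lost without PC3 pentamidine replicate 1 (0.0714), 2 (0.0616) or 3 (0.0627), and without the filter on low counts (0.0527). The limma test, run here and below on CPM without TMM, did not make the call (adjusted p = 0.105 on log2(CPM + 0.1)). In DU145 cells JUN had 114, 118 and 121 CPM with vehicle and 97.1, 97.5 and 103 with pentamidine. It fell there without overlap from 118 ± 3.53 to 99.3 ± 3.48 CPM (log2 fold change -0.24 ± 0.043, edgeR adjusted p = 7.74e-06). The responses differed by -0.40 ± 0.067 (edgeR adjusted p = 6.27e-05).

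JUNB (ENSG00000171223, chromosome 19:12791496-12793315), which can restrain JUN at shared sites, fell in DU145 cells. It had 31.4, 24.1 and 29.8 CPM in PC3 cells with vehicle and 30.5, 27.1 and 27.9 with pentamidine, with overlapping groups and a log2 fold change of 0.01 (95% interval -0.19 to 0.21, edgeR adjusted p = 0.931). In DU145 cells the values were 29.9, 26.3 and 31.9 CPM with vehicle and 19.8, 19.5 and 20.3 with pentamidine. All treated samples were below all controls, and the mean fell from 29.4 ± 2.84 to 19.9 ± 0.414 CPM (log2 fold change -0.56 ± 0.081, edgeR adjusted p = 1.81e-07). The responses differed by -0.57 ± 0.13 (edgeR adjusted p = 0.00194). JUNB overlaps HOOK2 on the opposite strand, a gene with 145 to 249 counts per sample, and the sources do not say whether counting used strand, so its value is less certain.

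The 3 remaining genes are early genes outside AP-1, and they include the largest change of the 10 in PC3 cells. IER3 (ENSG00000137331, chromosome 6:30743199-30744554), an early gene that takes part in cell survival, had 124, 121 and 114 CPM in PC3 cells with vehicle and 231, 225 and 223 with pentamidine. The mean rose from 119.9 ± 5.15 to 226 ± 4.18 CPM with no overlap (log2 fold change 0.92 ± 0.051, 1.89-fold, edgeR adjusted p = 1.82e-10). In DU145 cells IER3 had 98.6, 96.4 and 100.5 CPM with vehicle and 67.5, 61.6 and 65.8 with pentamidine. It fell without overlap from 98.5 ± 2.04 to 65.0 ± 3.03 CPM (log2 fold change -0.60 ± 0.047, edgeR adjusted p = 2.34e-15). The responses differed by -1.52 ± 0.067 (edgeR adjusted p = 1.52e-15), the largest difference among the 10 genes. An antisense gene, IER3-AS1, had 0 to 1 counts per sample.

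DUSP1 (ENSG00000120129, chromosome 5:172768090-172771195) encodes a nuclear phosphatase that switches off MAP kinases. It had 43.5, 44.7 and 43.5 CPM in PC3 cells with vehicle and 67.1, 66.5 and 65.9 with pentamidine. The groups stood well apart, and the mean rose from 43.9 ± 0.721 to 66.5 ± 0.634 CPM (log2 fold change 0.60 ± 0.061, edgeR adjusted p = 4.69e-07). In DU145 cells DUSP1 had 21.8, 21.3 and 21.9 CPM with vehicle and 13.1, 17.5 and 17.01 with pentamidine, where replicate 1 was the lowest. It fell from 21.7 ± 0.340 to 15.9 ± 2.39 CPM (log2 fold change -0.44 ± 0.095, edgeR adjusted p = 2.00e-04), a call that limma on log2(CPM + 0.1) did not make (adjusted p = 0.0659). The responses differed by -1.04 ± 0.11 (edgeR adjusted p = 5.15e-08).

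EGR1 (ENSG00000120738, chromosome 5:138465490-138469315), a zinc-finger factor induced through SRF and ELK proteins, fell in both lines. It had 70.1, 57.5 and 55.4 CPM in PC3 cells with vehicle, replicate 1 being the highest, and 50.8, 49.5 and 48.8 with pentamidine. The groups did not overlap, and the mean fell from 61.0 ± 7.94 to 49.7 ± 0.986 CPM (log2 fold change -0.29 ± 0.078, edgeR adjusted p = 0.00629). Without PC3 vehicle replicate 1 the value was -0.19 (edgeR adjusted p = 0.0305), and limma on log2(CPM + 0.1) did not make the call (adjusted p = 0.0637). In DU145 cells EGR1 had 16.8, 12.9 and 15.1 CPM with vehicle and 10.1, 9.36 and 9.93 with pentamidine. It fell without overlap from 14.9 ± 1.91 to 9.81 ± 0.403 CPM (log2 fold change -0.60 ± 0.11, edgeR adjusted p = 2.79e-05). The difference between the lines was -0.31 (95% interval -0.60 to -0.02, edgeR adjusted p = 0.125), and it passed the test without PC3 vehicle replicate 1 (-0.43, edgeR adjusted p = 0.00933) or without DU145 vehicle replicate 2 (-0.41, edgeR adjusted p = 0.0425).

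Over the 10 genes, the response differed between the lines for 6 (FOSL1, FOSL2, JUN, JUNB, IER3 and DUSP1), where 20.4% of all genes tested differed. For 5 of these the value in DU145 cells was the lower, and for FOSL1 the higher. Scaled by library size alone, 66.8% of all genes with such a difference were higher in DU145 cells in place of 50.3%, and the same 6 members passed. The differences of FOS (-0.06, 95% interval -1.09 to 0.97) and FOSB (-0.64, -1.61 to 0.34) were not detectable at this depth, and that of FOSB ran from -1.16 to -0.42 with each sample left out (lowest without DU145 pentamidine replicate 1, highest without DU145 pentamidine replicate 2). The RNA came from whole cultures, so that fewer cells of a kind and less RNA per cell cannot be told apart.

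The level of the genes before treatment was compared between the vehicle samples, DU145 against PC3. The log2 difference (DU145 minus PC3) was -2.01 ± 0.10 for EGR1 (edgeR adjusted p = 4.57e-11), -1.06 ± 0.12 for JUND (7.55e-07), -0.99 ± 0.070 for DUSP1 (2.78e-09) and -0.26 ± 0.052 for IER3 (3.31e-04), which were all lower in DU145 cells. FOSL2 was higher by 0.74 ± 0.053 (edgeR adjusted p = 3.22e-09). Thus 1 of the 10 genes was higher and 4 were lower, against 33.8% and 31.5% of all genes tested. JUN (0.07, 95% interval -0.04 to 0.19), JUNB (0.07, -0.14 to 0.29), FOSL1 (-0.06, -0.18 to 0.06), FOS (-0.40, -1.04 to 0.24) and FOSB (0.31, -0.32 to 0.94) did not pass. FOSL1 was past the threshold without PC3 vehicle replicate 2 (-0.14, edgeR adjusted p = 0.0203) and with library size alone (-0.14, edgeR adjusted p = 0.0338). This comparison shares its vehicle samples with both treatment comparisons.

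Levels of different genes were compared per length, as CPM divided by the exon length of the gene in kilobases. In PC3 cells with vehicle FOSL1 was the highest at 111 ± 9.72 CPM per kb, followed by IER3 at 88.4 ± 3.80, JUND at 62.2 ± 13.4, JUN at 32.2 ± 1.64, DUSP1 at 21.7 ± 0.357, EGR1 at 19.4 ± 2.53, JUNB at 15.6 ± 2.098 and FOSL2 at 11.6 ± 0.482. FOS had 0.563 ± 0.178 CPM per kb and FOSB 0.227 ± 0.033. Of the neighbours in this order, DUSP1 and EGR1 were the only pair whose samples overlapped. With pentamidine IER3 led the order in PC3 cells at 167 ± 3.08 CPM per kb, above JUND at 88.5 ± 1.31 and FOSL1 at 69.4 ± 2.44, and EGR1 and JUNB overlapped, as did FOS and FOSB. In DU145 cells FOSL1 stayed first, at 105 ± 1.498 CPM per kb with vehicle and 103.6 ± 4.20 with pentamidine, and IER3 second, at 72.6 ± 1.51 and 47.9 ± 2.24. JUN (33.3 ± 0.996) and JUND (29.3 ± 4.21) overlapped with vehicle, while JUND (43.9 ± 1.16) stood above JUN (28.05 ± 0.983) with pentamidine.

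The make-up of each family, as shares of its summed CPM per kb, changed with these values. The shares add up to the whole family, so a change in any subunit moves the others and the shifts are not separate results. In PC3 cells the shares of JUN and JUNB fell, while their own log2 fold changes were 0.16 and 0.01. In DU145 cells the share of FOSL1 rose, while its own log2 fold change was -0.01. FOSL1 made up 90.5%, 89.4% and 89.98% of the FOS family in the 3 PC3 samples with vehicle and 79.7%, 79.5% and 77.5% with pentamidine. FOSL2 went from 9.38% ± 0.467 to 20.5% ± 1.29 there, without overlap. In DU145 cells the shift was smaller and the other way: FOSL1 had 84.2% ± 0.463 with vehicle and 86.6% ± 0.546 with pentamidine, and FOSL2 had 15.2% ± 0.494 and 13.1% ± 0.518. The size of the shift depended on the scale: the share of FOSL1 changed by -11.1 percentage points in PC3 and 2.40 in DU145 per length, and by -20.9 and 4.47 where counts were not divided by length. FOS and FOSB together held under 1% of the family in every group. JUND took 56.2% ± 3.71 of the JUN family in PC3 cells with vehicle and 63.2% ± 0.402 with pentamidine, and 37.1% ± 2.86 and 53.0% ± 1.42 in DU145 cells. The share of JUN was 29.5% ± 2.77 and 25.6% ± 0.410 in PC3 cells and 42.4% ± 1.88 and 33.9% ± 1.16 in DU145 cells, and that of JUNB was 14.3% ± 1.42 and 11.2% ± 0.527, and 20.5% ± 1.88 and 13.2% ± 0.273. None of the shares of FOSL1, FOSL2, JUN, JUNB and JUND overlapped between vehicle and pentamidine in either line. The exact permutation test (two-sided) gave p = 0.1 for each, the smallest that 3 samples against 3 allow, so these shares could not reach 0.05. The summed level of the FOS family was 124 ± 10.2 CPM per kb in PC3 cells with vehicle and 88.0 ± 1.83 with pentamidine, and 124 ± 1.40 and 119.6 ± 4.18 in DU145 cells. That of the JUN family was 110.02 ± 16.5 and 139.9 ± 2.1003 in PC3 cells, and 78.8 ± 5.79 and 82.9 ± 0.123 in DU145 cells.

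**Figure D4:**
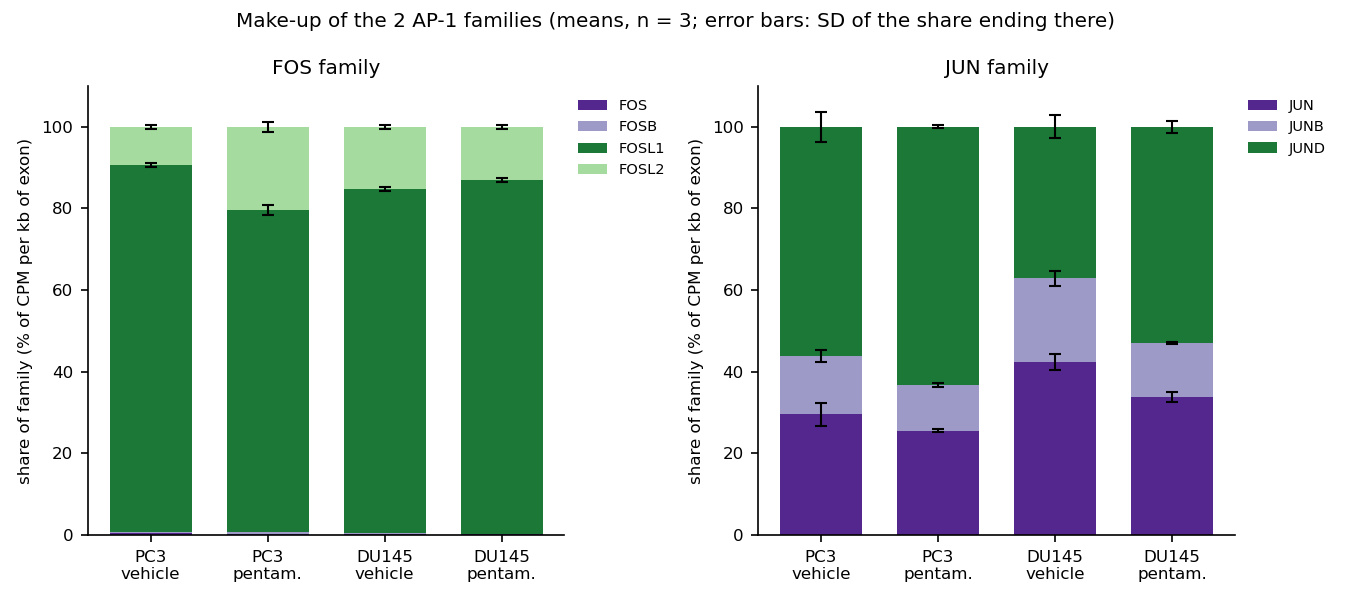
Share of each subunit in the summed CPM per kb of its family (percent), means of 3 samples per group, with the SD of each share drawn at its upper end. FOSL2 goes from 9.38% to 20.5% of the FOS family in PC3 cells, and JUND from 37.1% to 53.0% of the JUN family in DU145 cells.

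The other genes of the pathway were read from 5 lists, by role, and their shares stand against the 21.7% of all genes that rose and 21.7% that fell in PC3 cells, and the 17.2% and 16.8% in DU145 cells. Of 28 kinases and transcription factors that act upstream of the early genes, 27 were tested in each line, and 4 rose and 8 fell in PC3 cells and 4 rose and 6 fell in DU145 cells, with a median log2 fold change of -0.09 and -0.02. These are 14.8% and 29.6% of the list in PC3 cells, and 14.8% and 22.2% in DU145 cells, near the shares of all genes. The p38 kinase MAPK11 rose in both lines (log2 fold change 0.43 and 0.48, in PC3 and DU145 cells), as did MAP2K2, a kinase that activates ERK (0.23 and 0.15). The p38 activator MAP2K3 (-0.70 and -0.41), the ERK-activated kinase RPS6KA1 (-0.81 and -0.18) and ELK3, a partner of SRF (-0.24 and -0.29), fell in both.

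A list of 17 genes held further MAP kinase phosphatases, the kind to which DUSP1 belongs, together with feedback inhibitors of ERK signalling. Of these, 14 were tested in PC3 cells, where 6 rose and 2 fell, and 16 in DU145 cells, where 4 rose and 2 fell. That is 42.9% and 14.3%, and 25% and 12.5%. Their median log2 fold change was 0.12 and -0.02. ERRFI1, which inhibits the EGF receptor, rose in both lines (1.39 and 0.19), from 295 ± 9.61 to 771 ± 8.58 CPM in PC3 cells, and SPRED2 rose too (0.36 and 0.21). DUSP7 fell in both lines (-0.54 and -0.50), and SPRY2 fell in PC3 cells and rose in DU145 cells (-0.23 and 0.32, difference 0.55, edgeR adjusted p = 1.74e-05).

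Of 10 other bZIP proteins that can pair with AP-1 subunits or share their sites, 9 were tested in PC3 cells, of which 4 rose and 0 fell, and 8 in DU145 cells, of which 3 rose and 1 fell, with medians of 0.17 and -0.04. As shares these are 44.4% and 0%, and 37.5% and 12.5%, of few genes. JDP2, which dimerises with JUN proteins and represses AP-1 sites, had the largest change, from 0.550 ± 0.181 to 13.6 ± 1.02 CPM in PC3 cells (log2 fold change 4.62) and from 2.02 ± 0.337 to 9.68 ± 0.742 CPM in DU145 cells (2.27). In PC3 cells with vehicle JDP2 lay below FOS (1.82 CPM), and it passed the filter on low counts there through its pentamidine samples. The size of that change is therefore less certain (SE 0.21). NFE2L2, the regulator of antioxidant genes, rose in both (0.76 and 0.20), and so did ATF7 (0.47 and 0.35).

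Of 30 other immediate early genes, 25 were tested in PC3 cells, where 11 rose and 3 fell, and 24 in DU145 cells, where 6 rose and 7 fell. The shares are 44% and 12% in PC3, and 25% and 29.2% in DU145. Their medians were 0.21 and -0.03. ATF3, a stress-induced bZIP factor that also binds AP-1 sites, rose from 2.49 ± 0.261 to 34.6 ± 4.24 CPM in PC3 cells (log2 fold change 3.79) and from 0.855 ± 0.287 to 4.53 ± 0.560 CPM in DU145 cells (2.41). The DU145 vehicle level was low, so the size of that change is less certain (SE 0.27). KLF4 rose as well (2.86 and 1.56), and so did CTGF, now named CCN2, a matricellular protein (1.57 and 0.33). KLF10 (-0.79 and -0.53) and PLAUR, the urokinase receptor (-0.44 and -0.51), fell in both lines. In opposite directions, HBEGF, a ligand of the EGF receptor, rose in PC3 cells and fell in DU145 cells (0.38 and -1.04), as did CYR61, now named CCN1 (0.21 and -0.24), and SOCS3 fell in PC3 cells and rose in DU145 cells (-0.26 and 0.17). The difference between the lines passed the test for these 3 genes (-1.42, edgeR adjusted p = 1.48e-14 for HBEGF, -0.44 and 3.79e-05 for CYR61, 0.43 and 5.79e-04 for SOCS3).

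Of 23 genes known as AP-1 targets, 19 were tested in PC3 cells, where 6 rose and 7 fell, and 16 in DU145 cells, where 2 rose and 10 fell, with medians of 0.02 and -0.19. The shares are 31.6% and 36.8% in PC3, and 12.5% and 62.5% in DU145. VEGFA, an angiogenic growth factor, rose in both (1.53 and 1.14), as did HMOX1, haem oxygenase (1.42 and 0.37). CXCL8, a neutrophil chemokine, fell from 132 ± 6.04 to 119 ± 2.07 CPM in PC3 cells (log2 fold change -0.14) and from 58.3 ± 2.00 to 5.58 ± 1.11 CPM in DU145 cells (-3.38). LAMB3, a laminin chain (-0.45 and -0.69), and the hyaluronan receptor CD44 (-0.68 and -0.38) fell in both lines. The cytokine IL6 went from 12.8 ± 1.13 to 28.3 ± 3.93 CPM in PC3 cells and from 44.3 ± 2.80 to 8.47 ± 1.39 CPM in DU145 cells, a rise and a fall (1.15 and -2.38, difference -3.52, edgeR adjusted p = 1.15e-15). LIF (0.66 and -0.70) and PLAU, urokinase (0.37 and -0.98), also rose in PC3 cells and fell in DU145 cells.

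Across these lists, the genes that passed in both lines were 8 of 23 tested in both for the early genes, 3 of 8 for the bZIP proteins, 4 of 14 for the phosphatases and feedback inhibitors, 5 of 26 for the upstream genes and 10 of 16 for the AP-1 targets, or 34.8%, 37.5%, 28.6%, 19.2% and 62.5%, where 22% of all genes tested in both lines did. Those that rose in PC3 cells and fell in DU145 cells, as 4 of the 10 members did, were 2, 0, 0, 0 and 3, against 1.33% of all genes.

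**Figure D5:**
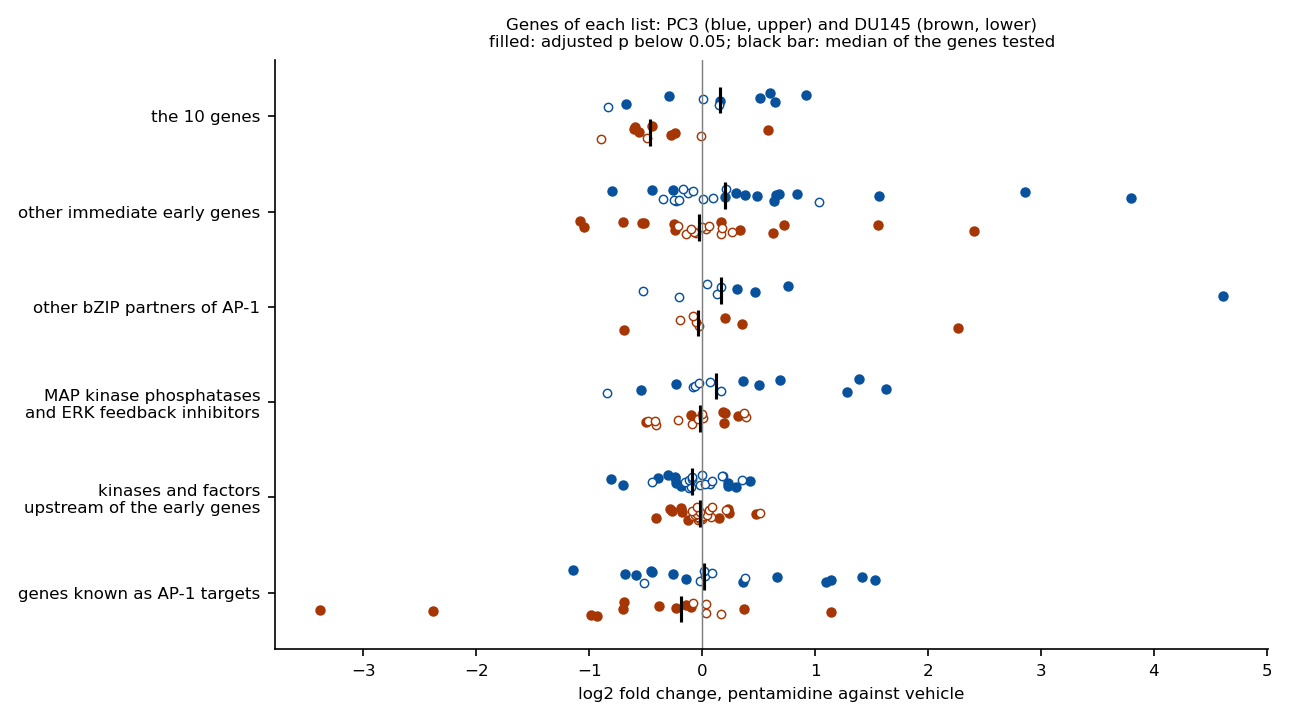
Log2 fold change of every tested gene of the 10 members and the 5 lists in PC3 cells (blue) and DU145 cells (brown), with a black bar at each median and filled points for an adjusted p below 0.05. The medians of the 10 members lie at 0.16 and -0.46, and JDP2 in PC3 cells lies farthest to the right at 4.62, from a vehicle level of 0.550 CPM.

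For the members that passed in both lines, the 2 genes with the most similar pattern were found among 13078 genes, by the root mean square difference of log2 CPM over the 12 samples, each gene centred on its own mean. SMURF2 and RAB31 were nearest to FOSL2 (both 0.10), ELOVL1 (0.055) and RAP2B (0.057) to JUN, and ARNTL (0.15) and NMRK1 (0.15) to JUND. ELF4 (0.17) and NAV1 (0.19) were nearest to EGR1, SAT1 (0.13) and SERPINB8 (0.19) to IER3, and MFSD6 (0.15) and ME1 (0.18) to DUSP1.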

How the data were processed

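RNA from 12 samples, 3 for each of 4 groups, was captured by its poly(A) tail and sequenced. Per the labels, groups were taken from the sample titles. The authors aligned the reads with HISAT2 (2.1.0, from the submitters' processing notes, which also name DESeq 1.18.1 and GRCh38). The counting program, annotation and use of strand are not given in the sources used here. The deposited count table holds whole reads per gene, without normalization. Its 33595 entries with an Ensembl identifier gave 32077 genes after identical entries were merged, and 44 broken lines of annotation text were skipped. The table the authors deposited under the name of FPKM holds CPM, since 100% of its 384924 values equalled the count scaled to the library total within 1 part in 100000, so the tests planned for FPKM were run on CPM. The deposited tables of comparisons (log2 fold changes, p-values and adjusted p-values) were not used.

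Counts were tested with edgeR 4.0.16 (quasi-likelihood test, TMM, filterByExpr at a minimum count of 10) in R 4.3.3, with 6 samples for each line or for the vehicle samples and 12 for the difference between lines, after the script was tested on simulated data. The alternatives were DESeq2 1.42.0, RLE, library size, TMM without mitochondria-encoded genes, other filters on low counts, limma 3.58.1 on log2(CPM + 1) and log2(CPM + 0.1), which understates changes of low genes, the replicate number as a block, all 12 samples in 1 fit, other thresholds and each sample left out. For limma, CPM was scaled by library size alone, without TMM. Shares were compared with an exact permutation test (scipy 1.17.1). Exon lengths are the bases covered by any exon of the gene in GENCODE release 29, over all its transcripts. Other genes are named where they are the 3 of a list and direction with the largest absolute log2 fold change, averaged over both lines, among genes that passed in both, and this mean was settled on after the values were seen. The members and lists were chosen with earlier results of these data known. Intervals cover the spread between samples, and the reads carry no molecular identifiers.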

Additional observations from a re-analysis of the deposited data

Results flagged for a closer look

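The response to pentamidine differed between the 2 cell lines for 6 of the 10 genes, by the test of the difference itself (DU145 minus PC3, log2 scale, edgeR adjusted p below 0.05). Of all genes tested, 20.4% passed that test. The difference was -1.52 for IER3, -1.04 for DUSP1, -0.92 for FOSL2 and -0.40 for JUN, all of which rose in PC3 cells and fell in DU145 cells. The PC3 call of JUN was lost with some single samples left out (edgeR adjusted p up to 0.109) and under limma. The difference was -0.57 for JUNB, which passed the test in DU145 cells, and 0.67 for FOSL1, which passed it in PC3 cells. In all 3 treated PC3 samples IER3, DUSP1 and FOSL2 lay above the PC3 controls, and in all 3 treated DU145 samples below the DU145 controls.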

How the results depend on the processing

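Of the 678 values of single members under other settings, 637 kept their direction and their side of the threshold, 9 lost the call, 9 gained it and 23 changed sign, all of these 23 for values that had not passed the test. The members called under DESeq2, RLE and TMM without mitochondria-encoded genes were those of the main test in each comparison. With the further condition of an absolute log2 fold change above 1, the number of members was 0 in PC3 cells, 0 in DU145 cells, 2 for the difference between lines (IER3 and DUSP1) and 2 between the vehicle groups (EGR1 and JUND). Of all genes tested, 4.75% met this condition in PC3 cells and 2.03% in DU145 cells. That share was not counted for the difference or between the vehicle groups, so whether those counts are unusual cannot be said. With each sample left out, the number called was 6 to 8 in PC3 cells, 7 to 7 in DU145 cells, 6 to 7 for the difference between lines and 5 to 6 between the vehicle groups. The limma settings scaled by library size alone, so they differ from the main test in scaling as well as in the test. On log2(CPM + 0.1), limma lost EGR1 in PC3 cells (adjusted p = 0.0637) and DUSP1 in DU145 cells (0.0659). It lost JUN in PC3 cells with both pseudocounts (0.105 and 0.11). FOS passed in PC3 cells with at least 10 counts in every sample (0.0469) and with all 12 samples in 1 fit (0.0476), and in DU145 cells with limma on log2(CPM + 1) (0.0436). The change in the share of FOSL1, in percentage points, was -20.9 for PC3 and 4.47 for DU145 where counts were not divided by length, in place of -11.1 and 2.40, and it ran from -11.5 to -10.4 and from 2.09 to 2.61 with each sample left out. That of JUND ran from 5.42 to 9.05 in PC3 cells, where it was highest without vehicle replicate 1, and from 14.2 to 16.9 in DU145 cells. Signs changed as follows, with library size alone, limma on log2(CPM + 1) and limma on log2(CPM + 0.1) in this order: JUNB in PC3 cells to -0.0062, -0.0021 and -0.0019, FOSL1 in DU145 cells to 0.041, 0.0394 and 0.0396, JUN between the vehicle groups to -0.0066, -0.0064 and -0.0065, and JUNB there to -0.0051, -0.00333 and -0.00332. The difference of FOS between lines became 0.0062 and 0.060 under the first 2. With each sample left out, JUNB in PC3 cells ran from -0.098 to 0.086, FOSL1 in DU145 cells from -0.043 to 0.018, the difference between lines from -0.32 to 0.25 for FOS and from -0.13 to 0.16 for JUND, and JUNB between the vehicle groups from -0.042 to 0.150. The causes were not tested. Library size alone moved the median of all genes by -0.018 in PC3 cells, 0.050 in DU145 cells, 0.068 for the difference and -0.080 between the vehicle groups. Depth limited FOS (6 to 33 counts per sample) and FOSB (11 to 27).

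The labels number the replicates 1 to 3 in each group. With the replicate number as a block, 7 members passed in PC3 cells, 7 in DU145 cells, 6 for the difference and 5 between the vehicle groups, which were those called without the replicate block, while the number of all genes called went from 6010 to 5599, 4860 to 4794, 3112 to 2803 and 9405 to 9430. For vehicle and pentamidine samples with the same number, deviations from the group mean were correlated over genes. The values were -0.018, 0.045 and -0.156 in PC3 cells and -0.014, 0.0022 and 0.0025 in DU145 cells. Not every sample correlated best with its own number. With 3 samples per group, these values cannot tell whether samples with the same number shared a batch or culture.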
